A study of Mus musculus with 5 samples.

Results

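Respiratory complex I (NADH:ubiquinone oxidoreductase) is described here through the 42 genes, of 41128 listed in the deposited table, whose symbol in that table begins with Ndufa, Ndufb, Ndufc, Ndufs, Ndufv, Ndufab or Ndufaf followed by a number. They form 2 groups, 35 genes under subunit symbols and 7 Ndufaf genes, which encode assembly factors. RNA was sequenced from cardiomyocyte nuclei of infarcted hearts of FVB mice aged 8 weeks, 7 days after the left anterior descending artery was permanently tied. The border zone group, the living muscle beside the infarct, holds 3 libraries, from mice 32, 34 and 40. The remote group, muscle of the same kind of heart far from the infarct, holds 2 libraries, from mice 40 and 43. Tissue was microdissected and frozen, nuclei were sorted on PCM-1, a protein of the cardiomyocyte nuclear surface, and 500 pg of input entered a low-input amplification. The labels thus name 4 animals, only mouse 40 gave both regions, every heart used here was infarcted, and no uninjured heart is among the groups. The question addressed was how the RNA of border zone cardiomyocyte nuclei differs from that of remote ones.

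Complex I is the entry point of electrons from NADH into the respiratory chain of the inner mitochondrial membrane. Its matrix arm oxidises NADH at a flavin and passes electrons along iron-sulfur clusters to ubiquinone, and its membrane arm pumps protons. The heart depends on it heavily, because most cardiac ATP comes from oxidative phosphorylation. Its core consists of nuclear-encoded matrix-arm subunits and mitochondrially encoded membrane-arm subunits, around which accessory subunits are placed with the help of assembly factors that leave the finished enzyme.

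The libraries differed in depth and in how many genes they held, and the part of this in the results was not tested. Depth recovered from the normalised values was 18725791 to 25014205 reads in the border zone libraries and 11324539 to 13440421 in the remote libraries. At the read total of the shallowest library, 11324539, which does not equalise the size factors, 15843, 18288 and 19602 genes were expected in border zone mice 32, 34 and 40, against 22670 and 22386 in remote mice 40 and 43. Of the 14989 genes with a mean normalised value of at least 10, the genes tested, 9.10%, 4.39% and 2.34% had no read in the 3 border zone libraries, against 0.867% and 1.73% in the remote ones. The sorted nuclei carried cardiomyocyte markers throughout, since none of 9 was at 0 in any library. Their summed normalised value was 1867052 to 6353344 in the border zone and 1010242 to 1494252 in the remote region, and most of it was Ttn in every library. On the log2 scale 7 of the 9 were higher in the border zone and 2 lower, Pln without overlap (-2.63 ± 0.67) and Myl2 with overlap (-0.10 ± 0.44). Markers of other cell types differed as well, and their part in the results was not tested. The summed level was 3386 to 5142 in the border zone against 1975 to 2761 in the remote region for 8 fibroblast markers, 5756 to 12435 against 816 to 2151 for 7 mural markers, 293 to 637 against 385 to 424 for 7 endothelial markers, and 116 to 274 against 193 to 292 for 7 leukocyte markers. Most of the mural sum was Cspg4 in every library except that of remote mouse 43, where Cspg4 was 299.7 of 816. The other 6 mural markers summed to 470.4 to 1192 in the border zone against 402 to 517 in the remote region. Among them, Rgs5 was lower in the border zone (-4.09 ± 1.43 on the log2 scale). The defining markers at 0 were Lum, Kdr and Adgre1 in border zone mouse 32, C1qa in border zone mice 32 and 34, Kcnj8 in border zone mice 34 and 40 and remote mouse 40, and Tcf21 in border zone mouse 40 and remote mouse 43.

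Regulatory sequence upstream of the genes is shown first, because factors known to drive respiratory chain genes bind short motifs near the start site. RefSeq (GRCm38.p6) gave the 250 bases before the start for 36 of the 42 genes, and Ndufs1, Ndufb9 and Ndufaf6 were among those not matched. Both strands were searched for 4 motifs, with N for any base: GCGCANGCG for nuclear respiratory factor 1, CCGGAAG for ETS factors such as GABP, TNAAGGTCA for estrogen-related receptors and ANATGGCG for YY1. The first stood in 4 of the 36 promoters (11.1%, against 5.86% of the promoters of 27025 genes), the ETS motif in 4 (11.1% against 7.83%), the receptor motif in 0 (0% against 1.3%) and the YY1 motif in 4 (11.1% against 2.39%). At least 1 of the motifs was present in 12 of 36 (33.3%, against 15.6% of all genes). Among members whose border zone libraries all lay below both remote libraries and that passed the filter, 4 of 19 with a promoter held a motif, against 8 of 17 of the other members. The 4 promoters below are those of a gene with the first motif, a gene with the ETS motif, a core subunit without a motif whose border zone values were all lower, and Ndufv3, the member whose border zone values were all higher. Capitals mark motif letters, the sequences run 5′ to 3′ on the strand of the gene, and none overlaps the gene body in GENCODE M21. In Ndufaf4 the capitals are a pair of overlapping matches, one on each strand, which begin 113 and 112 bases before the start, and in Ndufaf1 the match begins 18 bases before it. A match is a letter match only, and binding was not measured.
Ndufaf4, chr4:24897833-24898082, plus strand: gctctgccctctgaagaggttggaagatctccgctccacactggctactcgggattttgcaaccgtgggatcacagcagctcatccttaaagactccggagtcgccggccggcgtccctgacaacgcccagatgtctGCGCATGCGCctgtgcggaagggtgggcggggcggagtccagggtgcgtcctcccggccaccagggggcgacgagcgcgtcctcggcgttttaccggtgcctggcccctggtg
Ndufaf1, chr2:119662835-119663084, minus strand: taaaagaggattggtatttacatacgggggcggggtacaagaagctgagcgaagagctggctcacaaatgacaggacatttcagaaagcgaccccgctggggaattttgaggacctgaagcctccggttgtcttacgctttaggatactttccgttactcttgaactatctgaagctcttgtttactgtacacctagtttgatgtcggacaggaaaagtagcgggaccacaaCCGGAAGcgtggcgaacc
Ndufv2, chr17:66101560-66101809, minus strand: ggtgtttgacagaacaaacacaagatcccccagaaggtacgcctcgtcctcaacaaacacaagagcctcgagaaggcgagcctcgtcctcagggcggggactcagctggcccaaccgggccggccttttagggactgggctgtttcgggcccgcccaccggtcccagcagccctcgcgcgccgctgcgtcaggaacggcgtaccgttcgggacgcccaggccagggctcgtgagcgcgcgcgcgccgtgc
Ndufv3, chr17:31519865-31520114, plus strand: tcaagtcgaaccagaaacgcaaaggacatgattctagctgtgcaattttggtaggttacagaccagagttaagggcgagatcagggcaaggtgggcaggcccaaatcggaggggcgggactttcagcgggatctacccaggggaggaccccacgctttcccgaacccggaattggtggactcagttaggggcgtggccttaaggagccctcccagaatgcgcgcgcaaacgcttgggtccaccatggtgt

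Most complex I genes had less RNA in border zone nuclei than in remote nuclei. The border zone mean lay below the remote mean for 37 of the 42 genes, 30 of 35 under subunit symbols and 7 of 7 assembly factors, where 53.0% of the 27508 genes with a read in any library did so. All 3 border zone libraries lay below both remote libraries for 23 genes (19.5% of the genes with a read), all lay above for 1 (12.0% of the genes with a read), and the groups overlapped for 18. In sorted nuclei measured in bulk, fewer nuclei with a transcript and less transcript per nucleus cannot be told apart.

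Of the 42 genes, 31 under subunit symbols and 6 assembly factors passed the filter and were tested. Ndufa1, Ndufa2, Ndufa4l2, Ndufaf2 and Ndufb6 did not pass. The filter used the mean over all libraries, so counts over the tested genes are descriptions. In limma, 0 of the 37 passed an adjusted p of 0.05, and 0 of all 14989 did (0% in either direction). At an unadjusted p under 0.05, limma gave 10 lower and 0 higher among the 37, against 7.87% lower and 10.2% higher of all tested genes, and edgeR on recovered reads gave 6 lower (6.52% of all) and 0 at an adjusted p under 0.05. The smallest adjusted p in limma was 0.140 among the 37, for Ndufs1 and Ndufab1, and 0.133 among all genes. The authors' deposited table calls these same 2 genes lower (2 of 38 with an adjusted p, where that table calls 1.98% of 16592 genes lower) and 0 of them higher (3.46% of its genes are higher).

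The log2 change, border zone over remote on the log2(value + 1) scale, was negative for 36 of the 37 tested genes, against 55.0% of all tested genes. Among the 36 were Ndufa8, Ndufb3 and Ndufb11, whose border zone means lay above their remote means. The change was negative for 33 of the 37 in edgeR, in DESeq2 and with quantile normalisation, against 50.2%, 48.4% and 51.7% of all tested genes. On the log2(value + 1) scale its median was -1.40 over the 31 genes under subunit symbols and -1.77 over the 6 assembly factors, beside -0.21 over all tested genes. It lay below the all-gene median for 27 of the 31 and for 6 of the 6. Under the other scalings of the same libraries both medians stayed negative, and they were -2.82 and -3.11 with total-count scaling, where the median of all tested genes was -1.58. Among the tested genes, 21 had all border zone libraries below both remote ones and 1 had all above, against 20.3% and 18.9% of all tested genes. Without border zone mouse 34, 30 of the 37 changes were negative and 7 positive.

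**Figure D1:**
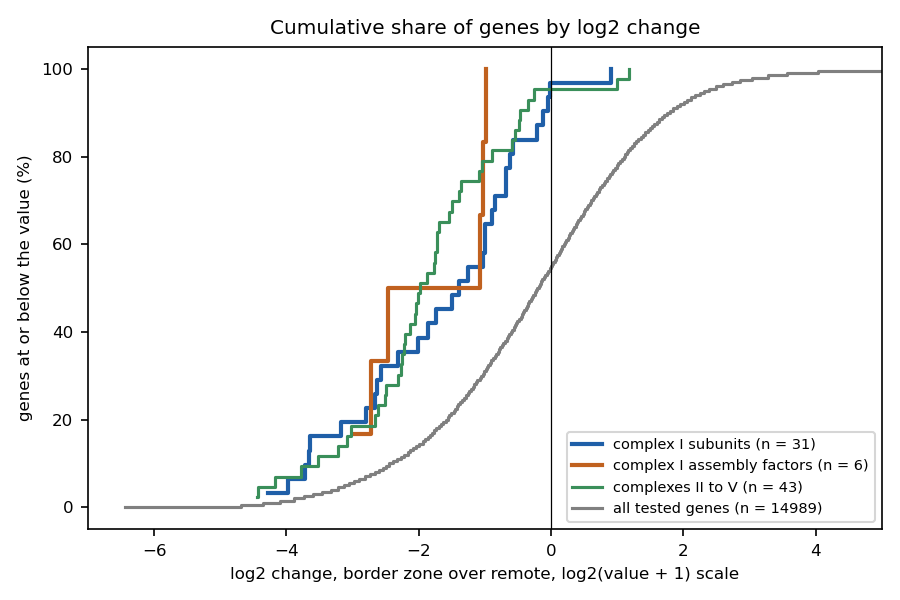
The cumulative share of genes (percent, vertical axis) is drawn against the log2 change, border zone over remote on the log2(value + 1) scale (horizontal axis), for the 31 tested genes under subunit symbols, the 6 tested assembly factors, 43 nuclear-encoded genes of complexes II to V and all 14989 tested genes. The 3 respiratory chain curves lie to the left of the all-gene curve for most of their length, with medians of -1.40, -1.77 and -1.98 against -0.21.

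Mouse 40, which gave both regions, showed a smaller difference. Within this animal, with 1 library per region and no test, the median log2 change was -0.49 over the genes under subunit symbols and -0.89 over the assembly factors, beside 0.02 over all tested genes. The sign was negative for 29 of the 37, against 49.0% of all tested genes, and 7 of the 36 genes that were negative over all libraries were positive within mouse 40. With border zone mice 32 and 34 left out and both remote libraries kept, 29 of 37 were again negative, against 49.1% of all tested genes.

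The libraries of each group were not alike. Summed over the 35 genes under subunit symbols, the normalised value was 3810.1, 3273 and 4615 in border zone mice 32, 34 and 40, against 5630.0 and 9549 in remote mice 40 and 43. Over the 7 assembly factors the sum was 192, 239 and 311 in those border zone libraries, against 523 and 529.9 in the remote ones. The groups did not overlap in either sum, border zone mouse 40 was the highest of its group in both, and remote mouse 43 stood well above remote mouse 40 in the subunit sum. Of the 37 tested genes, 23 had their highest value in remote mouse 43 and 8 in remote mouse 40, against 26.6% and 11.2% of all tested genes. Border zone mouse 40 exceeded both other border zone libraries for 23 of the 37. At 11324539 reads per library, 28.9, 26.1 and 32.2 of the 35 genes under subunit symbols were expected to be detected in the border zone libraries, against 33.8 and 35.0 in the remote ones.

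**Figure D2:**
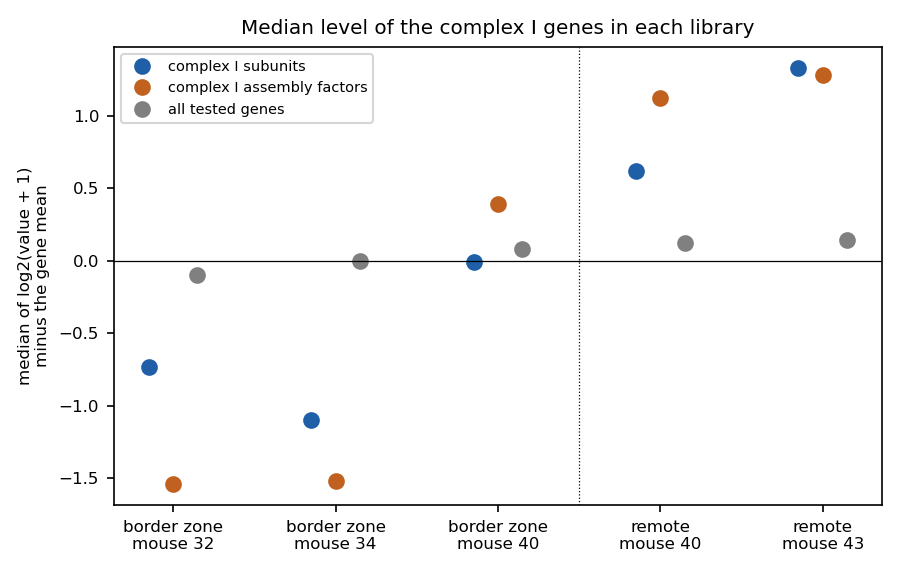
For each library (horizontal axis, border zone left of the dotted line and remote right of it), points give the median over genes of log2(value + 1) minus the mean of that gene over the 5 libraries (vertical axis), for tested genes under subunit symbols, tested assembly factors and all tested genes. The subunit medians were -0.73, -1.10 and -0.01 in border zone mice 32, 34 and 40 and 0.62 and 1.33 in remote mice 40 and 43, while those of all tested genes ran from -0.10 to 0.14.

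The core subunits of the NADH-oxidising arm had lower values in every border zone library. Ndufs1 encodes the large iron-sulfur subunit, which holds several of the clusters on the path to ubiquinone, and lies on chromosome 1 (63143596-63176833, minus strand, mm10). Its normalised read count was 171, 129 and 179.9 in border zone mice 32, 34 and 40, against 531 and 1175 in remote mice 40 and 43. The 3 border zone values lay close together and none reached the lower remote value. They averaged 160.1 ± 27.1 (SD, n = 3) against 853 ± 456 (n = 2), a log2 change of -2.31 ± 0.59 (SE) with an adjusted p of 0.140 in limma. The authors' deposited table gives -2.41 with an adjusted p of 0.0109. Within mouse 40 the difference was -1.56. In the annotation, exons of Ndufs1 share bases with Ino80dos and Eef1b2 on the opposite strand, and whether strand was used in counting is not stated in the labels.

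Ndufv1 encodes the flavin-binding subunit that takes electrons from NADH. It had 47.5, 135 and 269.9 in border zone mice 32, 34 and 40, against 356 and 543 in remote mice 40 and 43. The groups did not overlap, with means of 151 ± 112 (SD, n = 3) and 449 ± 133 (n = 2). The border zone values spread more widely relative to their mean. Its log2 change was -1.86 ± 0.76 (adjusted p = 0.237, limma) and -0.40 within mouse 40. Ndufv2 encodes the neighbouring iron-sulfur subunit. It had 3.17, 20.9 and 80.6 in the border zone, against 156 and 197 in the remote region, and the value of border zone mouse 32 is under the 4.75 that 3 reads give in that library. Its change was -3.17 ± 1.22 (adjusted p = 0.217, limma) and -0.95 within mouse 40. All 3 of these core genes kept a negative change under every alternative, and their median was -2.31 over all libraries and -0.95 within mouse 40.

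The core subunits of the arm that reaches ubiquinone differed less, and of those described here only Ndufs3 was without overlap. Ndufs3, a scaffold subunit of this arm, had 108, 127 and 285 in border zone mice 32, 34 and 40, against 296 and 585 in remote mice 40 and 43. Border zone mouse 40 came within a small distance of its remote partner, and the change was -1.40 ± 0.66 over all libraries (adjusted p = 0.292, limma) but -0.06 within mouse 40. Gm12251, a near-identical copy of Ndufs3 elsewhere in the genome, has reads of its own in the table, with a mean normalised value of 106, so reads may be split between them. Ndufs7 holds the last iron-sulfur cluster before ubiquinone and lines its binding cavity. It had 157, 39.4 and 221 in the border zone, against 138 and 232 in the remote region, with a change of -0.68 ± 0.83 (adjusted p = 0.679, limma), 0.67 within mouse 40 and 0.06 without border zone mouse 34. The sign of its change thus rested on border zone mouse 34. Ndufs8, which holds a pair of iron-sulfur clusters next to the cavity, had 47.5, 66.4 and 41.5 in the border zone, against 51.3 and 164 in the remote region. Remote mouse 43 alone stood apart, and without it the change of -0.84 ± 0.89 (adjusted p = 0.630, limma) was -0.01.

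Compared per kilobase of transcript, the scale on which genes can be ranked, the core genes described here kept unequal levels. The mean normalised level per kilobase in the border zone was highest for Ndufs3 (165) and Ndufs7 (141), followed by Ndufv1 (90.9), Ndufs1 (60.2), Ndufs8 (53.8) and Ndufv2 (22.7). In the remote region it was 421 for Ndufs3, 321 for Ndufs1, 271 for Ndufv1, 188 for Ndufs7, 115 for Ndufv2 and 112 for Ndufs8. Ndufs1 was thus the fourth in the border zone order and the second in the remote order, and the spread between the 3 border zone libraries or the 2 remote libraries was wider than most steps in this order.

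**Figure D3:**
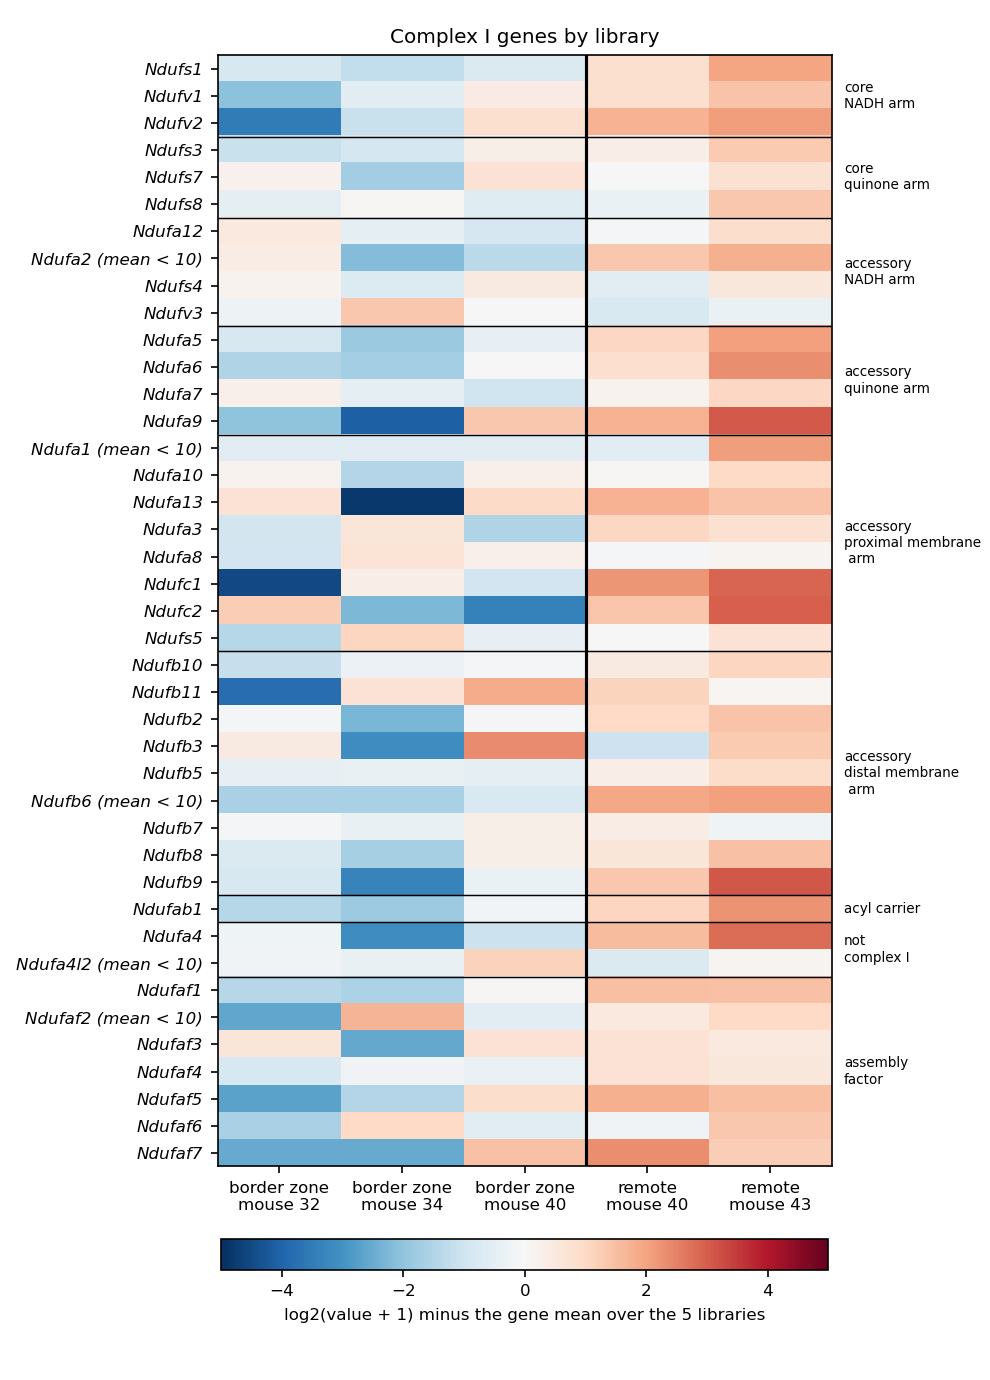
Colour gives log2(value + 1) of 41 of the genes (rows, grouped by role) in each library (columns, the 3 border zone libraries left of the thick line, the 2 remote libraries right of it), minus the mean of the gene over the 5 libraries, with red above and blue below that mean. Rows marked as having a mean below 10 were not tested. Most rows are blue in border zone mice 32 and 34 and red in remote mouse 43, and border zone mouse 40 lies between. Ndufv3 is red in border zone mouse 34, near its mean in the other border zone libraries and below it in both remote ones.

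The accessory subunits around the NADH-oxidising arm had a median change of -0.05 over the 3 tested, and of 0.76 within mouse 40. Ndufv3, a small subunit beside the flavin site, was the only member of the 42 with every border zone value above every remote one. It lies on chromosome 17 (31520115-31531331, plus strand, mm10) and had 315, 956 and 380.2 in border zone mice 32, 34 and 40, against 224 and 299.7 in remote mice 40 and 43. The border zone mean of 551 ± 353 (SD, n = 3) rested in good part on mouse 34, and the remote mean was 262 ± 53.4 (n = 2). Its log2 change was 0.90 ± 0.61 (adjusted p = 0.445, limma) and 0.76 within mouse 40, and it was -0.52 with total-count scaling, still above the all-gene median of -1.58 there. Ndufs4, whose loss causes Leigh syndrome in people, had 216, 119 and 266 in the border zone, against 134 and 287 in the remote region. The groups covered the same range, and the change was -0.05 ± 0.67 (adjusted p = 0.974, limma) over all libraries, 0.98 within mouse 40, 0.28 without border zone mouse 34 and 0.50 without remote mouse 43. Ndufa12, which takes a place held by an assembly factor in the unfinished arm, had 344, 179.7 and 137 in the border zone, against 238 and 448 in the remote region, again overlapping, with a change of -0.68 ± 0.64 (adjusted p = 0.587, limma). A near-identical copy of Ndufa12, Gm15920, has a mean normalised value of 121 in the table. Ndufa2, under the filter, had 4.75, 0 and 0.782 in the border zone, against 10.6 and 14.6 in the remote region, without overlap.

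The accessory subunits of the ubiquinone arm had low values with large differences. Ndufa9, which sits at the junction of the arms and binds NADPH, had 3.17, 0 and 42.2 in border zone mice 32, 34 and 40, against 55.1 and 141 in remote mice 40 and 43. It was close to absent in 2 border zone libraries and near its remote partner in mouse 40, so the change was -3.98 ± 1.62 (adjusted p = 0.237, limma) over all libraries but -0.38 within mouse 40. Ndufa5 had 11.1, 4.92 and 14.9 in the border zone, against 42.3 and 88.4 in the remote region, with a change of -2.58 ± 1.20 (adjusted p = 0.284, limma). Ndufa6, a subunit of the LYR family, had 1.58, 1.23 and 6.26 in the border zone, against 12.1 and 35.8 in the remote region, a change of -2.66 ± 1.57 (adjusted p = 0.382, limma). These 3 genes were without overlap, while Ndufa7 (30.5 to 72.9 in the border zone, 69.5 and 126 in the remote region) overlapped narrowly. The median change of the 4 was -2.62 over all libraries and -1.01 within mouse 40.

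Among the accessory subunits of the proximal membrane arm, Ndufc1 had the most negative change of the 37 tested genes in limma, while Ndufb9 and Ndufa4 were more negative in edgeR and DESeq2. This small membrane subunit had 0, 28.3 and 11.0 in border zone mice 32, 34 and 40, against 106 and 173 in remote mice 40 and 43. Every border zone value was far under the lower remote one, with means of 13.1 ± 14.3 (SD, n = 3) and 139.8 ± 47.2 (n = 2). The change was -4.28 ± 1.48 (adjusted p = 0.192, limma) and -3.17 within mouse 40, and the authors' deposited table gives -3.41 with an adjusted p of 0.0594. Ndufc2, its partner in the membrane arm, had 23.8, 1.23 and 0 in the border zone, against 26.4 and 81.9 in the remote region. The groups were separated by a narrow gap, the change was -3.65 ± 1.68 (adjusted p = 0.279, limma), and within mouse 40, where the border zone library had no read, it was -4.78. Ndufa13, also known as GRIM-19, and Ndufa3 were without overlap too. Ndufa13 had 46.0, 0 and 54.0 in the border zone, against 94.4 and 74.6 in the remote region, a change of -2.63 ± 1.63 (adjusted p = 0.406, limma). That change rested on border zone mouse 34, since it was -0.74 without this library, and it was -1.42 in edgeR and -1.34 in DESeq2. Ndufa3 had 28.5, 84.9 and 18.8 in the border zone, against 115 and 93.6 in the remote region, a change of -1.50 ± 0.96 (adjusted p = 0.417, limma).

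The rest of this role overlapped between regions. Ndufa10, a nucleoside kinase-like subunit, had 639, 204 and 678 in the border zone, against 602 and 1153 in the remote region. Its change was -0.90 ± 0.63 (adjusted p = 0.460, limma) over all libraries and 0.17 within mouse 40. Ndufa8, an intermembrane-space subunit with paired cysteines, had 55.5, 175 and 131 in the border zone, against 100.4 and 119 in the remote region, a change of -0.01 ± 0.77 (adjusted p = 0.995, limma), which was 0.47 without border zone mouse 32 and 0.11 without remote mouse 43. Ndufs5, which has a near-identical copy, BC002163, so that reads may be split, had 14.3, 84.9 and 29.7 in the border zone, against 40.0 and 67.2 in the remote region. Ndufa1, under the filter, had no read in any border zone library or in remote mouse 40, and 5.12 in remote mouse 43. The median change over the 7 tested genes of this role was -1.50 over all libraries and -0.79 within mouse 40.

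In the distal membrane arm, 5 of 8 tested genes were without overlap, all lower in the border zone, against 20.3% of all tested genes. Ndufb7, an intermembrane-space subunit, had 459.6, 381 and 598 in border zone mice 32, 34 and 40, against 625 and 425 in remote mice 40 and 43. The groups overlapped fully, with a change of -0.13 ± 0.52 (adjusted p = 0.911, limma) that was 0.02 without border zone mouse 34 and 0.15 without remote mouse 40. Ndufb5 had 141, 143 and 136 in the border zone, against 235 and 349 in the remote region. Its 3 border zone libraries agreed within a few units and lay under both remote ones, yet the change of -1.03 ± 0.61 had an adjusted p of 0.386 in limma. Exons of Ndufb5 share bases with Mrpl47 on the opposite strand. Ndufb9, another LYR-family subunit, had 4.75, 0 and 7.04 in the border zone, against 24.9 and 85.5 in the remote region, and 3 reads give 4.75, 3.69 and 2.35 in those border zone libraries. Its change was -3.72 ± 1.55 (adjusted p = 0.243, limma), and the authors' deposited table gives -3.78 with an adjusted p of 0.0733. Ndufb2, Ndufb8 and Ndufb10 were without overlap as well, with changes of -2.01 ± 0.88, -1.74 ± 0.81 and -1.25 ± 0.68. Exons of Ndufb9, Ndufb2 and Ndufb8 share bases with the protein-coding genes Gm49356, Gm42420 and Gm20538 on the same strand, where strand cannot separate the reads.

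Ndufb3 had border zone values on both sides of the remote ones, with 25.4, 1.23 and 97.8 in border zone mice 32, 34 and 40, against 8.30 and 46.0 in remote mice 40 and 43. The highest and the lowest library were both from the border zone, the change was -0.22 ± 1.64 (adjusted p = 0.952, limma) over all libraries, 3.41 within mouse 40, 1.29 without border zone mouse 34 and 0.95 without remote mouse 43. The authors' deposited table gives 0.62. Ndufb11 scattered in the same way, with 0, 22.1 and 49.3 in the border zone, against 28.7 and 13.9 in the remote region. Its border zone mean lay above its remote mean (23.8 against 21.3), although its change was negative in limma (SE 1.72). That sign rested on border zone mouse 32, which had no read, since the change was 0.70 without this library. It was 0.12 in edgeR, 0.17 in DESeq2, 0.01 with quantile normalisation and 1.26 in mice 40 and 43 alone. It stayed negative with TMM and total-count scaling, with other pseudocounts and without any other single library. Ndufb6, under the filter, had 0, 0 and 0.782 in the border zone, against 10.6 and 11.7 in the remote region. Over the 8 tested genes of the distal arm the median change was -1.14 over all libraries and -0.41 within mouse 40.

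Ndufab1 encodes the mitochondrial acyl carrier protein, which sits in complex I and also serves mitochondrial fatty acid synthesis. It lies on chromosome 7 (122085403-122101886, minus strand, mm10) and had 82.4, 64.0 and 207 in border zone mice 32, 34 and 40, against 481 and 1084 in remote mice 40 and 43. The highest border zone value was under the lower remote value, with means of 118 ± 78.0 (SD, n = 3) and 782 ± 426 (n = 2). The change was -2.80 ± 0.70 (adjusted p = 0.140, limma) over all libraries and -1.21 within mouse 40. The authors' deposited table gives -2.73 with an adjusted p of 0.0172. Near-identical copies of Ndufab1, Gm4459 and Ndufab1-ps, have a summed mean normalised value of 44.7 in the table, and an exon of Ndufab1 shares bases with Gm44986 on the opposite strand.

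A pair of genes under subunit symbols do not belong to complex I. Ndufa4 encodes a subunit of complex IV, although it was first assigned to complex I. It had 6.34, 0 and 3.13 in border zone mice 32, 34 and 40, against 24.9 and 58.5 in remote mice 40 and 43, without overlap, and its change was -3.65 ± 1.56 (adjusted p = 0.252, limma). Ndufa4l2, its hypoxia-induced relative, had at most 5.48 in any library (1.58, 1.23 and 5.48 in the border zone, against 0.755 and 2.19 in the remote region) and was not tested. Without this pair, the median change over the 30 tested subunit genes was -1.32.

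**Figure D4:**
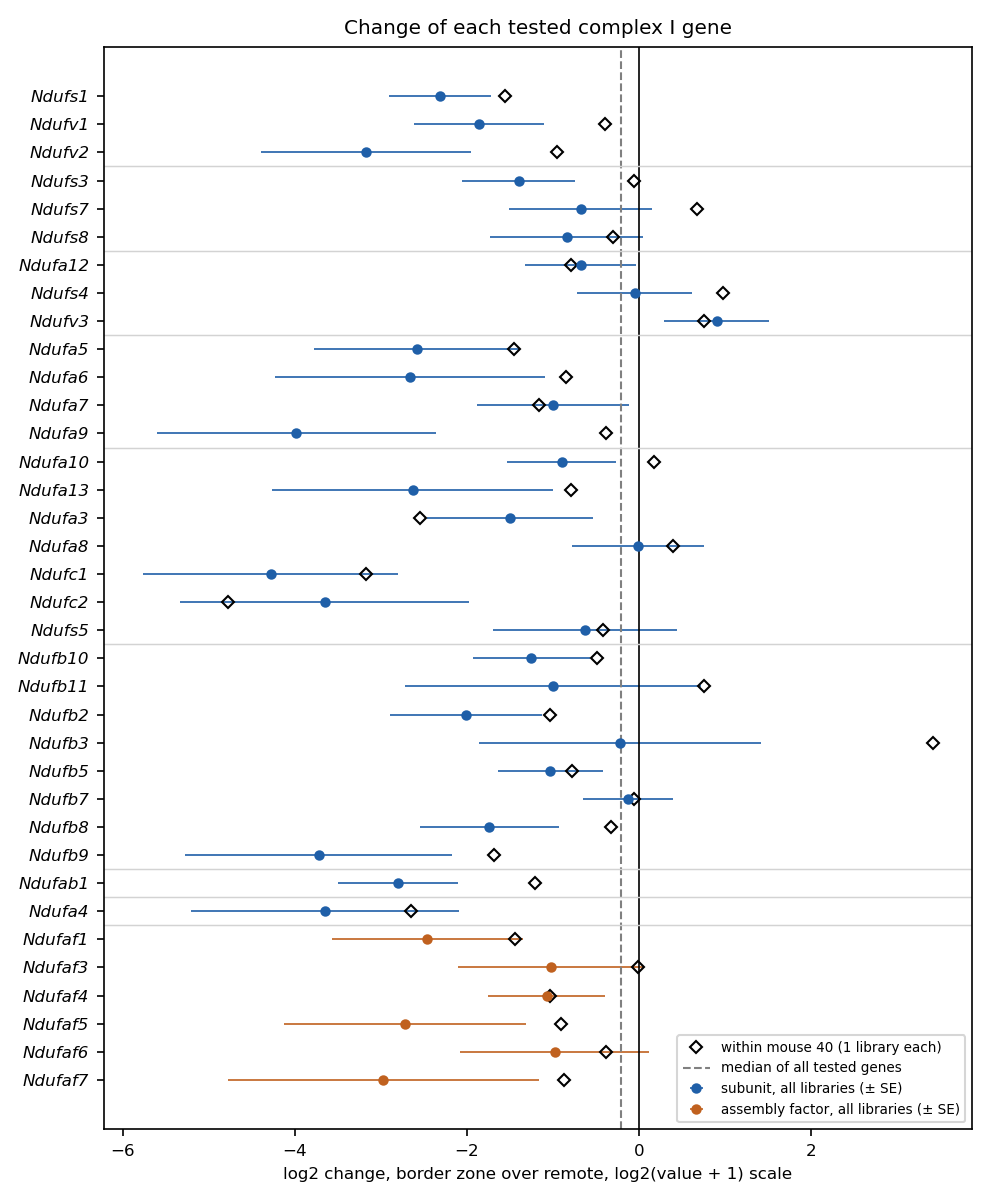
Filled points give the log2 change (horizontal axis), border zone over remote on the log2(value + 1) scale, of 36 tested genes, with lines of ± 1 SE from limma, and open diamonds give the change within mouse 40, from 1 library per region. Genes are ordered by role, the dashed line is the median of all tested genes at -0.21, and 35 of the 36 points lie left of 0 against 29 of the 36 diamonds.

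Every assembly factor had a lower mean in the border zone, against 53.0% of the genes with a read. Of the 7, 3 were lower without overlap, against 19.5% of the genes with a read. Ndufaf1, a factor of the intermediate that builds the membrane arm, had 9.51, 8.61 and 28.9 in border zone mice 32, 34 and 40, against 80.0 and 77.5 in remote mice 40 and 43. The remote libraries were nearly equal and far above all border zone ones, with means of 15.7 ± 11.5 (SD, n = 3) and 78.7 ± 1.80 (n = 2). Its change was -2.46 ± 1.11 (adjusted p = 0.272, limma) over all libraries and -1.44 within mouse 40. Ndufaf4, which works with Ndufaf3 on the ubiquinone arm, had 72.9, 112 and 102 in the border zone, against 211 and 189 in the remote region. Neither group spread widely, the change was -1.07 ± 0.68 (adjusted p = 0.414, limma), and the value within mouse 40, -1.03, was close to it. Ndufaf5, which hydroxylates an arginine of Ndufs7 in human cells, had 1.58, 4.92 and 28.9 in the border zone, against 55.1 and 45.3 in the remote region, without overlap, a change of -2.72 ± 1.41 (adjusted p = 0.324, limma).

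The other assembly factors overlapped between regions. Ndufaf3 had 95.1, 9.84 and 104 in the border zone, against 105 and 88.4 in the remote region, so that only border zone mouse 34 was low, and without it the change of -1.02 ± 1.08 (adjusted p = 0.631, limma) was 0.05. Its exons share bases with Impdh2 on the opposite strand. Ndufaf6 had 12.7, 84.9 and 28.2 in the border zone, against 37.0 and 107 in the remote region, a change of -0.98 ± 1.10 (adjusted p = 0.654, limma). Ndufaf7, a mitochondrial arginine methyltransferase, had 0, 0 and 14.9 in the border zone, against 27.9 and 12.4 in the remote region, a change of -2.97 ± 1.81 (adjusted p = 0.400, limma). Ndufaf2, under the filter, had 0, 18.5 and 3.13 in the border zone, against 7.55 and 11.0 in the remote region.

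Assembly factors named outside the Ndufaf series had changes of both signs. Of 11 listed, 10 were in the table under a known symbol and 9 were tested, with 6 negative and 3 positive changes, a median of -0.72 and 0 adjusted calls in limma. Tmem70, which helps to assemble complex I and ATP synthase, had 0, 0 and 1.56 in border zone mice 32, 34 and 40, against 46.0 and 92.1 in remote mice 40 and 43. It was at or near 0 in the whole border zone group, its change was -5.60 ± 1.58 (adjusted p = 0.143, limma), and the authors' deposited table gives -6.68 with an adjusted p of 0.00252. Tmem186, a partner of Ndufaf1, had 22.2, 20.9 and 28.9 in the border zone, against 105 and 78.2 in the remote region, a change of -1.89 ± 0.95. Ecsit, of the same intermediate, stood the other way, with 238, 287 and 228 in the border zone, against 169 and 139 in the remote region, a change of 0.70 ± 0.59, which was -0.72 with total-count scaling, where 84.7% of all tested genes were negative. Atp5sl, the older symbol of Dmac2, had 1266, 870.0 and 686 in the border zone, against 691 and 623 in the remote region, overlapping.

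Of the 7 core subunits that mitochondrial DNA encodes, 6 were tested, and these had positive changes where the nuclear-encoded core had negative ones. Their median was 1.09, and 6 of 6 were positive, with 0 adjusted calls in limma and 0 in the authors' deposited table. ND4 had 1024, 848 and 390.4 in border zone mice 32, 34 and 40, against 181 and 451 in remote mice 40 and 43, and ND2 had 219, 331 and 115 in the border zone, against 43.0 and 106 in the remote region. ND2 was without overlap and ND4 overlapped, with changes of 1.57 ± 0.76 and 1.28 ± 0.62. ND3, under the filter, had 3.17, 0 and 0 in the border zone, against 1.51 and 2.19 in the remote region. Its border zone mean lay below its remote mean. With total-count scaling, which moved the median of all tested genes to -1.58, the median of the 6 was -0.34. Relative to all tested genes it was 1.30 with the authors' scaling and 1.25 with total-count scaling. Mitochondrial transcripts are made outside the nucleus, and the sort was of nuclei.

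Genes of complexes II to V were lower in the same libraries. The list held 47 nuclear-encoded entries under symbols of these complexes, with Cox5b entered more than once. Of these, 43 were tested and 41 had a negative change. The median was -1.98, beside -0.21 over all tested genes, and it was -0.82 within mouse 40. Their summed normalised value was 5653, 5195 and 6138 in border zone mice 32, 34 and 40, against 8128 and 16796 in remote mice 40 and 43. This is the order of regions that the complex I sum showed, again with remote mouse 43 highest. The authors' deposited table calls 4 of the 44 with an adjusted p lower, Atp5f1, Atp5c1, Cox7b and Cox7a2, where it calls 1.98% of its 16592 genes lower. Since the complexes were measured in the same libraries, a difference between them and complex I was not tested.

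Regulators known to act on respiratory chain genes had 4 positive and 2 negative changes, and 0 of 6 passed an adjusted p of 0.05 in limma. Ppargc1b, a coactivator of the PGC-1 family, had 12099, 6807 and 3417 in border zone mice 32, 34 and 40, against 2036 and 1586 in remote mice 40 and 43. Esrra, an estrogen-related receptor, had 1106, 533 and 659 in the border zone, against 289.9 and 192 in the remote region. Both were without overlap and higher in the border zone, with changes of 1.87 ± 0.55 (adjusted p = 0.148, limma) and 1.63 ± 0.55 (adjusted p = 0.188, limma). Ppargc1a, the other PGC-1 coactivator listed, had 6763, 5408 and 7374 in the border zone, against 7863 and 14816 in the remote region, lower without overlap, with a change of -0.74 ± 0.47. Gabpa, the DNA-binding subunit of GABP, was lower without overlap, with 368, 214 and 512 in the border zone, against 643 and 872 in the remote region, a change of -1.12 ± 0.56 (adjusted p = 0.306, limma). Nrf1 had 144, 219 and 300.4 in the border zone, against 249.9 and 164 in the remote region, overlapping. Yy1 was higher without overlap, with 886, 790.0 and 192 in the border zone, against 186 and 171 in the remote region. The change of Yy1 was 1.52 ± 0.70 (adjusted p = 0.280, limma) over all libraries but 0.05 within mouse 40.

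Across all tested genes the change varied with transcript length, level and GC content, and the part of these in the result was not tested. The median transcript length was 1249 bases over the 37 tested members, against 3014 over all tested genes, and 30 of the 37 were among the 4965 tested genes with transcripts of at most 2166 bases. The median change of those short genes was -0.53, and that of the 30 members among them was -1.32. In the middle and longest classes it was -0.31 and 0.13 over all tested genes, and -2.31 over 5 members and -1.07 over 2. The change also followed the level, with a median of -0.86 over the 4996 tested genes with the lowest means and 0.43 over the 4997 with the highest. The members had medians of -2.69 over the 10 in the low class, -1.16 over the 16 in the middle class, whose genes had -0.46, and -0.90 over the 11 in the high class. The median GC content of the transcript was 51.3% over the tested genes under subunit symbols and 45.4% over the assembly factors, beside 49.5% over all tested genes. From low to high GC content, the median change of all tested genes was -0.82, -0.23 and 0.43 in classes of 4949 genes, and that of the members was -2.59 over the 12 in the low class and -1.14 over the 12 in the high class. In the annotation, 17 of the 42 members share exon bases with another gene.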

How the data were processed

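Nuclear RNA was sequenced from 5 libraries. The deposited per-library table holds a signal, normalised counts per gene on a linear scale. STAR, DESeq2 and mm10 are named, without versions, in the submitters' processing notes. Neither a counting tool nor an annotation nor a strand setting is named in the labels. Every positive value (100%) divided by the lowest of its library gave a whole number within 0.01, so read numbers were recovered, with size factors of 0.631 to 1.368. A further table of the authors lists transcript lengths in bases. Their comparison table holds log2 fold changes with p-values and adjusted p-values by the authors, which are quoted as such.

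The main test was limma 3.58.1 (R 4.3.3), two-sided, with a mean-variance trend on log2(value + 1), region as the only term and Benjamini-Hochberg adjustment over 14989 genes with a mean of at least 10. On this scale the fold changes of low genes can be smaller or larger than in the count models, and larger ones occur where a library has few or no reads. The code of the test was run on simulated counts with the same spread for every gene. Large set changes were placed only in genes with means well above the filter. Recovery of changes in genes near the filter, where some members lie, was therefore not covered. Alternatives were edgeR 4.0.16 with TMM scaling and its quasi-likelihood test, the Wald test of DESeq2 1.42.0, both on recovered reads, other pseudocounts, filters and scalings, and libraries left out. DESeq2 gave the same numbers of calls as the authors' table, 574 higher and 328 lower. The p-values take both libraries of mouse 40 as independent and measure the spread between libraries, which may be technical in part, with 3 libraries against 2. Floors of 3 reads cover counting error only.

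Genes were matched by symbol as given in the file, and coordinates come from GENCODE M21, on the assembly of mm10. Near-identical copies were sought among its transcripts with BLAST+ 2.17.0 (97% identity over 200 bases). Named genes were the 7 nuclear-encoded core subunits, members called in limma or the authors' table, the 6 with the most negative and the 6 with the most positive changes, all Ndufaf genes, Ndufa4, Ndufa4l2, members whose sign differed within mouse 40 and members under the filter, and 2 to 4 genes of each list of other complex I genes. Further subunits and regulators were named to complete a role or list, after their values were seen. 1 member, counted in all summaries, is not reported here by name. The members and lists were chosen with earlier results of these data known.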

Additional observations from a re-analysis of the deposited data

How the results depend on the processing

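The count of called genes depended on the model. limma called 0 genes in either direction, as did edgeR, while DESeq2 on the recovered reads called 574 higher and 328 lower, 2 of them complex I subunits (Ndufs1 and Ndufab1), and total-count scaling and quantile normalisation each called 1 gene higher. Leaving out 1 library gave 0 to 205 genes higher and 0 to 30 lower, the upper values without border zone mouse 40, and 0 complex I genes in every case. The median change of the subunits minus that of all tested genes was -1.19, -1.10 to -1.56 with 1 library left out and -2.03 with both libraries of mouse 40 left out, and that of the assembly factors was -1.56, -1.62 to -2.03 with 1 library left out, -0.85 with no filter and -0.88 in mice 40 and 43 alone, against -1.02 and -1.07 for the subunits. Of 360 values of single genes under 16 alternatives, 334 kept their direction and side of the threshold and 24 turned their sign, and 16 of the 23 tested genes counted never did. Counted were core subunits, called members, those with the most negative and most positive changes, Ndufaf genes and Ndufa4. Genes named for other reasons were not counted, and of these Ndufb11 and Ecsit, among others, turned their sign in at least 1 alternative. Ndufb3 was 0.05 with a pseudocount of 5, 0.86 with quantile normalisation, 0.56 in edgeR, 0.62 in DESeq2, 2.24 in mice 40 and 43 alone and -1.45 to 1.29 with 1 library left out. Ndufa8 was 0.16 with quantile normalisation, 0.08 in edgeR, 0.14 in DESeq2, 0.26 in mice 40 and 43 alone and -0.35 to 0.47 with 1 library left out. Ndufv3 was -0.52 with total-count scaling. In mice 40 and 43 alone, Ndufs7 was 0.30, Ndufb7 0.21, Ndufs4 0.43 and Ndufaf3 0.11. With 1 library left out, Ndufs7 ran from -1.17 to 0.06, Ndufb7 from -0.41 to 0.15, Ndufs4 from -0.59 to 0.50 and Ndufaf3 from -1.59 to 0.05. The cause of these differences was not tested. Where 1 library of a region remained, it was assumed to vary like the other region. Across scalings the median of all tested genes moved by -1.37 (total count) to 0.15 (quantile). No paired analysis was possible because the regions share only mouse 40. For the 12 members with no read in at least 1 library, log2 changes depend on the pseudocount. The border zone libraries, of mice 32, 34 and 40, were the deeper ones and had 4, 7 and 2 genes under subunit symbols at 0. The remote libraries, of mice 40 and 43, had 1 and 0.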

Other observations

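The table lists 4 further complex I genes under other names or without a symbol, so that they fell outside the rule, and they were looked at after the values of the members were known. Ndufs6, an accessory subunit of the NADH-oxidising arm with a zinc site, had 4.75, 2.46 and 0 in border zone mice 32, 34 and 40, against 21.9 and 137 in remote mice 40 and 43. All border zone values were at or under the floor of 3 reads in mice 32, 34 and 40, its log2 change was -4.38 ± 1.58 (adjusted p = 0.204, limma), and the authors' deposited table gives -5.17 with an adjusted p of 0.0130. Ndufa11, an accessory subunit of the membrane arm, had 133, 121 and 193 in the border zone, against 144 and 96.5 in the remote region, overlapping. Ndufb4 had 9.51, 3.69 and 48.5 in the border zone, against 34.0 and 38.0 in the remote region, where border zone mouse 40 was the highest library of all. Ndufaf8, listed as 1810043H04Rik, had 20.6, 1.23 and 41.5 in the border zone, against 49.1 and 57.0 in the remote region, without overlap.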
